A study of Rattus norvegicus with 24 samples.

Results

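The protein kinase C (PKC) family was followed through 24 rat RNA-seq libraries. Its 8 members here are Prkca, Prkcb, Prkcd, Prkce, Prkch, Prkci, Prkcq and Prkcz, taken by symbol from 36856 genes in each of 3 count tables. They were chosen by name with their levels in both tissues and their changes in all 3 comparisons already known. Prkcd had drawn attention as the gene with the smallest p of all genes in the aldosterone comparison, so the members' levels and changes are a description, and no test of them is offered. All 8 passed the filter on low counts in each table.

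The tissues sampled were the renal papilla, which is the inner medulla, and the ventricle of the heart, in 4 Sprague-Dawley rats per group weighing 120 to 200 g. Control rats in the aldosterone experiment ate a synthetic diet with 0.4% Na, and the treated rats ate the same diet while an osmotic minipump released 12 µg of aldosterone per day. The labels do not say whether the controls carried a pump. In the low-salt experiment, sampled in kidney and in heart, rats ate 0.4% Na (named high salt in the titles) or 0.01 to 0.02% Na (low salt), and the diets lasted 7 days. Replicates 1 and 2 of every group are labelled batch 1, and replicates 3 and 4 batch 2.

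PKC enzymes phosphorylate serine and threonine and carry signals from receptors that activate phospholipase C. The conventional isoforms alpha (Prkca) and beta (Prkcb) need calcium and the membrane lipid diacylglycerol. The isoforms delta (Prkcd), epsilon (Prkce), eta (Prkch) and theta (Prkcq) need diacylglycerol but not calcium, and the atypical isoforms iota (Prkci) and zeta (Prkcz) need neither and work with the Par polarity proteins of epithelia. In kidney tubules PKC is known to influence Na channels and transporters, and in heart muscle alpha, delta and epsilon are studied for contraction and for protection in ischaemia.

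The libraries held 24299423 to 38318764 counts. Cardiomyocyte markers summed to 66000 to 83600 CPM (counts scaled to the size of the library) in heart libraries and to at most 6.15 CPM in kidney libraries. Principal cell markers of the collecting duct summed to 9320 to 15100 CPM in kidney. In heart they reached 42.1 CPM on high and 3.21 CPM on low salt. Thick ascending limb markers reached 115 and 11.1 CPM there. The part of kidney transcripts in the members' heart values was not tested. The labels call all rats female. Xist, the RNA of the inactive X chromosome, was measured between 239 and 454 CPM in both groups of the aldosterone experiment (8 libraries), where 4 Y-linked genes summed to at most 0.319 CPM. The low-salt experiment's 16 libraries had the opposite pattern, with a highest Xist value of 0.0913 CPM and Y-linked sums from 144 to 275 CPM. That is the pattern of male tissue and goes against the label for these libraries. Each treatment comparison lies within 1 table and 1 such pattern. The setting of kidney beside heart and the tests of a difference between responses cross tables, and the test between aldosterone and low salt also crosses the 2 patterns. As a check of the treatments, Scnn1a, which encodes a subunit of the aldosterone-sensitive Na channel, averaged 109 ± 20.1 CPM (SD, n = 4) with aldosterone and 45.4 ± 15.3 CPM in controls, and 164 ± 59.5 and 25.4 ± 6.24 CPM on low and high salt in kidney, without overlap in either case.

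Promoter sequences in RefSeq (GRCr8) were matched for 6 of the 8 members. Those of Prkcd, the isoform that differed with aldosterone, and of Prkcz, the isoform that differed most between tissues, are shown from 250 bases before to 50 after the start site used in the promoter table, with capitals for the motifs named below. They lie at chr16:5805790-5806089 (minus strand) and chr5:171212625-171212924 (minus strand). That start site lies 283 bases inside the annotated outer end of the Prkcd gene, so the whole Prkcd window is within the gene's span, and 20 bases inside that of Prkcz.
Prkcd: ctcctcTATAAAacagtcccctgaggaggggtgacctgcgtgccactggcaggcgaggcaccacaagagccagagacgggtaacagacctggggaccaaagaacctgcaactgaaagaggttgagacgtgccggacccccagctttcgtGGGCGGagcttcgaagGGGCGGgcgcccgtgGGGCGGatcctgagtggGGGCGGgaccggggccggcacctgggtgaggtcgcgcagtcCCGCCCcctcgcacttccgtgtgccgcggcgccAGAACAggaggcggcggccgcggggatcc
Prkcz: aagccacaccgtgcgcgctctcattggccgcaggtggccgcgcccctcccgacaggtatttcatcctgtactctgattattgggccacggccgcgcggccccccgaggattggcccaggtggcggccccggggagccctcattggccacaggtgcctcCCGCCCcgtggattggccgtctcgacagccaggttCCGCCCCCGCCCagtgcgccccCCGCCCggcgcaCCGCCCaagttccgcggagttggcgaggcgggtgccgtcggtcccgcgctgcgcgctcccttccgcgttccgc

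Motifs were searched on both strands: TATAAA, which positions the polymerase; GGGCGG, the box bound by Sp1; AGAACA, the half-site of corticosteroid receptors; their full inverted-repeat response element; and TGANTCA, the phorbol ester element bound by the AP-1 proteins. In the Prkcd window TATAAA began at base -244. Its half-site AGAACA began at base 22, and GGGCGG occurred 5 times, at -101, -85, -70, -53 and, on the other strand, -12. The Prkcz window held GGGCGG 5 times, all on the other strand, and none of the other motifs. GGGCGG lay in all 6 matched member promoters and in 33.1% of 33365 promoters of this length. AGAACA was in 1 of the 6 and in 20.6% of all, TATAAA in 1 of the 6 and in 14.2%. Neither the full element, found in 0.441% of all promoters, nor TGANTCA, found in 7.34%, was present in any of the 6. GC content was 69% for Prkcd and 73.3% for Prkcz, against a median of 51.7%. These matches are letters in a window and say nothing about binding.

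All 8 isoforms were measured in both the inner medulla and the ventricle, in different proportions. The share of each gene in the summed counts of the 8 members does not depend on how libraries are scaled. It does depend on transcript length, and no transcript lengths were at hand, so shares and levels are compared for 1 gene between tissues and not between genes. Both atypical isoforms and Prkcq took a larger share in all 16 kidney libraries than in any of the 8 heart libraries, and Prkca, Prkcb, Prkce and Prkch took a smaller one. The summed level of the family on high salt was 448.9 ± 27.4 CPM in kidney and 144.8 ± 9.15 CPM in heart (SD, n = 4 each, tables scaled separately), so a smaller share is not by itself a lower level.

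Prkcz, whose product joins the Par complex at epithelial junctions, made up 21.1% to 30% of the family's counts in kidney (median 25.8%) and 0.744% to 1.39% in heart (median 1.18%). Prkci, the other atypical isoform, made up 26.7% to 34.4% in kidney and 10.3% to 12.4% in heart. Prkcq, best known for its role in T cells and skeletal muscle, took 9.61% to 18.8% in kidney and 1.54% to 3.43% in heart. T-cell markers summed to 8.29 to 22.4 CPM in kidney and 17.4 to 26.6 CPM in heart. Cd3d lay under 1 CPM in all libraries, and Cd2 in all kidney libraries. The part of T cells in the Prkcq shares was not tested.

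Among the isoforms with a larger share in heart, Prkce, the epsilon isoform of cardiac muscle, made up 19.2% to 29.6% in heart and 2.04% to 4.29% in kidney. Prkca, the main calcium-dependent isoform of heart muscle, took 14.8% to 23.6% in heart and 3.45% to 6.18% in kidney. Prkch and Prkcb had shares of 12.3% to 18.7% and 2.3% to 4.33% in heart, against 4.67% to 11.7% and 0.793% to 1.62% in kidney. Prkcd alone overlapped, with 17.1% to 28.9% in heart and 11% to 20.7% in kidney. That overlap came from the 4 aldosterone libraries, which held 18.8% to 20.7%, while in the 12 other kidney libraries the share was at most 14.3%.

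**Figure D1:**
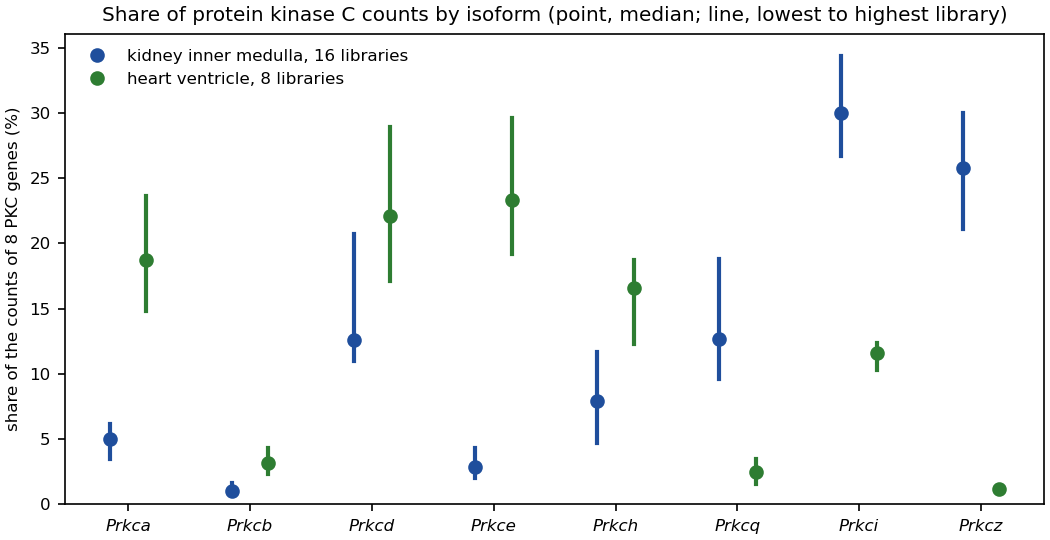
Share of each PKC gene in the summed counts of the 8 genes, in percent, for 16 kidney libraries (blue) and 8 heart libraries (green), with the point at the median and the line from the lowest to the highest library. Prkci, Prkcq and Prkcz lie higher in kidney (Prkcz median 25.8% against 1.18%), Prkca, Prkcb, Prkce and Prkch lie higher in heart, and the Prkcd ranges overlap.

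On the scale of levels, the 4 kidney and 4 heart libraries on high salt were compared after TMM scaling over all 24 libraries. Scaling matters here: with CPM of the raw library total, the kidney minus heart log2 difference of each of the 8 members is 0.89 higher. The median over 19760 genes, taken with 0.5 CPM added, which damps low genes, moves from 0.16 to 0.76. Prkcz stood at 88.1 to 100.2 CPM in kidney and 1.58 to 2.61 CPM in heart, 40.6-fold apart (log2 5.34). Prkcq stood at 34.2 to 41.5 and 3.62 to 7.07 CPM (log2 2.94), and Prkci at 103 to 118 and 21.8 to 26.7 CPM (log2 2.14). These 3 were higher in kidney under both scalings. Prkce stood at 7.17 to 11.3 CPM in kidney and 40.9 to 56.1 CPM in heart, with a log2 difference of -2.26, or -1.38 with raw totals, and was lower in kidney under both.

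For the other 4 members the direction or the separation rested on the scaling. Prkca had a log2 difference of -1.02 after TMM, with no overlap, and -0.13 with raw totals, with overlap. Prkcb went from -0.83 to 0.06, Prkcd from -0.19 to 0.70 and Prkch from 0.06 to 0.95. After TMM scaling 6 of the 8 members did not overlap between tissues, beside 71.2% of all genes tested, and with raw totals 6 of 8 beside 79.7%. On low salt the differences of the 4 isoforms with a direction under both scalings were 5.27 for Prkcz, 3.12 for Prkcq, 2.20 for Prkci and -2.45 for Prkce (log2, TMM). In bulk tissue, fewer cells of a type and less RNA per cell cannot be told apart, and the labels do not say whether kidney and heart came from the same rats.

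Within the inner medulla the atypical isoforms varied little from rat to rat. The coefficient of variation was 2.62% to 5.70% for Prkci and 3.84% to 8.66% for Prkcz over the 4 kidney groups. The highest value, 37.3%, belonged to Prkch with aldosterone, and in that experiment its batch 1 libraries (37.96 to 52.3 CPM) lay above its batch 2 libraries (22.1 to 29.8 CPM) whatever the treatment. The controls of the aldosterone experiment and the high-salt rats ate the same percentage of Na, but they differ in table and in the Xist and Y-linked pattern. Their Prkcd levels were 57.1 ± 5.26 and 57.4 ± 10 CPM (SD, n = 4 rats each, tables scaled separately). Prkca stood at 21.4 ± 4.52 CPM in those controls and 27.3 ± 1.72 CPM on high salt. Of the 4 high-salt rats 3 lay below the highest control (26.95 CPM), and all 4 lay above control replicates 1, 3 and 4 (20.8, 15.93 and 21.74 CPM). Prkcel1, a noncoding gene annotated inside the Prkce span, held at most 20 counts per library.

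**Figure D2:**
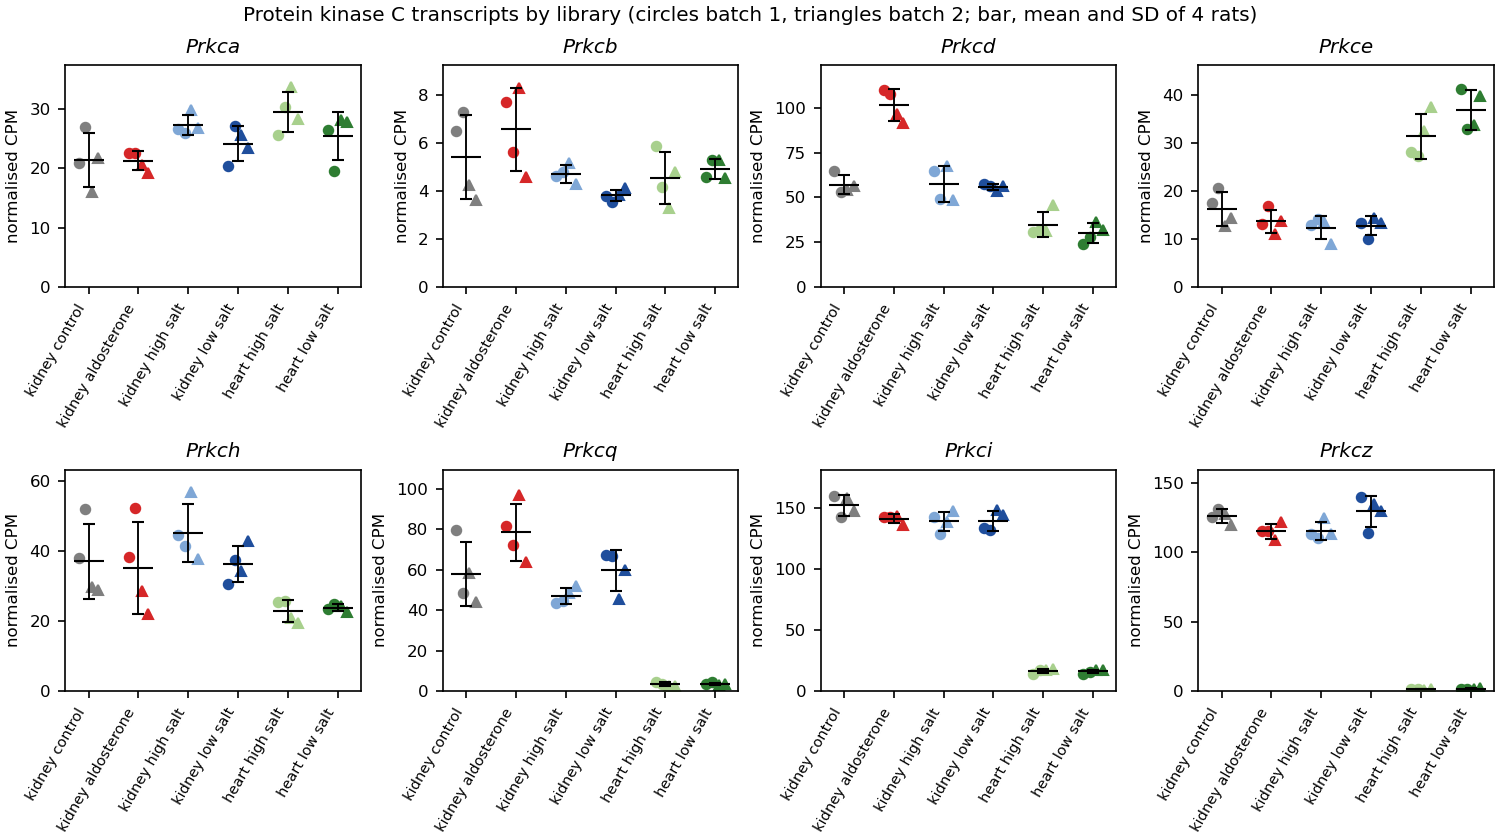
Normalised CPM of the 8 PKC genes (vertical axis, 1 panel per gene, own scale from 0) in the 24 libraries, grouped by tissue and treatment, with circles for batch 1, triangles for batch 2 and bars for the mean and SD of 4 rats. The 4 aldosterone points of Prkcd (91.3 to 110 CPM) lie above all other Prkcd points, and Prkcz and Prkcq lie close to 0 in heart.

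Aldosterone infusion addresses what the hormone does to the inner medulla without a change of diet. Prkcd was the member that differed. It stood at 110, 107.5, 96.4 and 91.3 CPM in the 4 aldosterone rats and at 64.7, 53.2, 54.1 and 56.2 CPM in the 4 controls (replicates 1 to 4). Every treated rat was above every control, with 101 ± 8.91 against 57.1 ± 5.26 CPM (SD, n = 4 rats each). The fitted log2 fold change was 0.83 ± 0.08 (SE), 1.77-fold, and it was 0.89 in batch 1 and 0.77 in batch 2. PKC delta is a diacylglycerol-dependent kinase with known roles in apoptosis and in signalling downstream of steroid hormones.

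Prkcq, the second-largest difference, stood at 81.6, 72.1, 96.8 and 63.7 CPM with aldosterone and at 79.9, 48.5, 58.5 and 44.3 CPM in controls. The groups overlapped because control replicate 1 was high, and the log2 fold change was 0.45 ± 0.20 (SE), with 0.30 and 0.62 in the 2 batches. Without aldosterone replicate 3 it was 0.28. Prkcb stood at 7.73, 5.64, 8.31 and 4.59 CPM with aldosterone and 6.48, 7.31, 4.25 and 3.62 CPM in controls (log2 0.33 ± 0.26), and its log2 difference was -0.06 in batch 1 and 0.66 in batch 2. Without aldosterone replicate 3 it was 0.06.

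The atypical isoforms and Prkce had small negative values. Prkcz stood at 109 to 122 CPM with aldosterone and 119.8 to 131 CPM in controls (log2 -0.13 ± 0.06), with 3 of 4 treated rats below all controls. Prkci stood at 136 to 144 and 143 to 160 CPM (-0.11 ± 0.06) and Prkce at 11.0 to 16.9 and 12.7 to 20.7 CPM (-0.24 ± 0.14). Prkch (-0.10 ± 0.15) and Prkca (0.00 ± 0.13) were spread over both groups. The share of Prkcd in the family's counts was 18.8% to 20.7% with aldosterone and 11% to 12.9% in controls, and the summed level of the 8 genes was 472 to 535 and 436 to 513 CPM.

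In the edgeR quasi-likelihood test with Benjamini-Hochberg adjustment over all genes, 0 of the 8 members passed an adjusted p of 0.05, beside 0% of 17671 genes. At an unadjusted p under 0.05 there was 1 member (9.9% of all genes), and DESeq2 called 1 member (2.06% of all genes), Prkcd in both cases. Without the filter on low counts edgeR called 4 of 27605 genes, Prkcd among them. In 1 of 8 members the groups did not overlap, beside 5.09% of all genes. The median log2 fold change of the 8 was -0.05, and that of all genes 0.00. Because the members were selected on this comparison, nothing is read from these counts.

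Marker lists of other cells were read in these libraries too, and only the dividing-cell sums separated the groups. All 7 markers of dividing cells were positive, and their summed level was 103 to 185 CPM with aldosterone and 22.1 to 62.2 CPM in controls, without overlap. Macrophage markers were positive in 11 of 11 measured, at 136 to 230 and 95.8 to 282 CPM, with Cd163 under 1 CPM in all 8 libraries. Thick ascending limb markers were positive in 5 of 5 (2590 to 5680 against 1250 to 3110 CPM) and fibroblast markers in 5 of 5 (143 to 418 against 102 to 317 CPM), and principal cell markers in 2 of 7 (10600 to 15100 against 12800 to 14800 CPM). Intercalated cell markers were positive in 5 of 5 measured (1950 to 3120 against 1490 to 2640 CPM). Urothelium markers were positive in 5 of 5 (22.7 to 159 against 31.3 to 67.9 CPM). None of these markers passed the adjusted threshold, and their part in the Prkcd difference was not tested.

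The genes whose pattern over the 24 libraries was most like that of Prkcd, among 12335 genes at 1 CPM or more in each table, were C1qbp, Rmi2, Epb41l2, Rgs3 and Ddt. Likeness was Pearson's r of log2 CPM after each table and batch was centred, and it was 0.78 for C1qbp, which encodes a mostly mitochondrial protein, and 0.76 for the other 4. Centring left the treatment differences in, so genes that differed with aldosterone in the direction of Prkcd were favoured. The aldosterone values of these genes therefore follow in part from how they were picked. Rmi2, a subunit of a DNA repair complex, had the largest aldosterone log2 fold change of the 5 (1.97 ± 0.32 SE), and Ddt, D-dopachrome tautomerase, the smallest (0.30 ± 0.06). Rgs3, a regulator of G protein signalling, stood at 0.59 ± 0.14, and Epb41l2, a membrane skeleton protein, at 0.49 ± 0.13. In the 8 libraries of the aldosterone experiment r was 0.84 to 0.99, and in the 16 others 0.20 to 0.45. Among the 28 pairs of members r ran from -0.49 to 0.45 with a median of -0.08. In the 8 aldosterone-experiment libraries Prkcd had 0.72 with Prkcq, -0.84 with Prkcz and -0.71 with Prkce. In the 16 others these pairs had -0.12, 0.26 and -0.07.

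Low salt addresses how the inner medulla responds when Na is scarce and the rat makes its own aldosterone. Prkcd, higher with infused hormone, stood at 57.2, 56.5, 53.3 and 56.0 CPM on low salt and at 64.7, 49.1, 67.3 and 48.4 CPM on high salt. The low-salt values fell inside the range of the high-salt values, with a log2 fold change of -0.04 ± 0.12 (SE) against 0.83 ± 0.08 for aldosterone.

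Prkcb, a conventional isoform abundant in leukocytes, was the only member whose groups did not overlap. It stood at 3.81, 3.54, 3.82 and 4.11 CPM on low salt and at 4.61, 4.77, 5.18 and 4.30 CPM on high salt, from 111 to 182 counts per library. The log2 fold change was -0.30 ± 0.14 (SE), and it was -0.35 in batch 1 and -0.25 in batch 2. Markers of T cells were positive in 1 of 6 measured (10.2 to 14 against 10.4 to 16.3 CPM), with Cd3d, Cd3e, Cd2 and Cd8a under 1 CPM in all 8 libraries. Markers of macrophages were positive in 3 of 11 (114 to 151 against 103 to 203 CPM), with Itgam and Cd163 under 1 CPM in all 8. B-cell markers were positive in 3 of 3 (15.8 to 29 against 13.6 to 30.1 CPM), with Ms4a1 and Pax5 under 1 CPM in all 8. Their part in the Prkcb difference was not tested.

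Prkch stood at 30.6 to 42.8 CPM on low salt and at 37.9 to 56.7 CPM on high salt, with 3 of 4 low-salt rats below all high-salt rats (log2 -0.31 ± 0.14). Prkca stood at 20.3 to 27.1 and 25.9 to 29.8 CPM (-0.18 ± 0.10), again with 3 of 4 below. Values in the other direction belonged to Prkcq and Prkcz. Prkcq stood at 67.2, 66.8, 45.5 and 59.8 CPM on low salt and 43.5, 44.7, 48.6 and 51.8 CPM on high salt (log2 0.34 ± 0.13). Its difference was 0.60 in batch 1 and 0.06 in batch 2, where low-salt replicate 3 was low.

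Prkcz stood at 114 to 140 CPM on low salt and 110.3 to 125 CPM on high salt (0.17 ± 0.07), with 3 of 4 low-salt rats above all high-salt rats. Prkci (0.00 ± 0.05) and Prkce (0.04 ± 0.18) were at about the same level on both diets, Prkci at 132 to 149 and 129 to 147 CPM. No member passed the adjusted threshold in edgeR, beside 2.46% of 18449 genes. At an unadjusted p under 0.05 there was 1, Prkcq (19.6% of all genes), and DESeq2 called 0 (10% of all genes). In 1 of 8 members the groups did not overlap, beside 11.4% of all genes, and the median log2 was -0.02 against 0.00 for all genes.

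**Figure D3:**
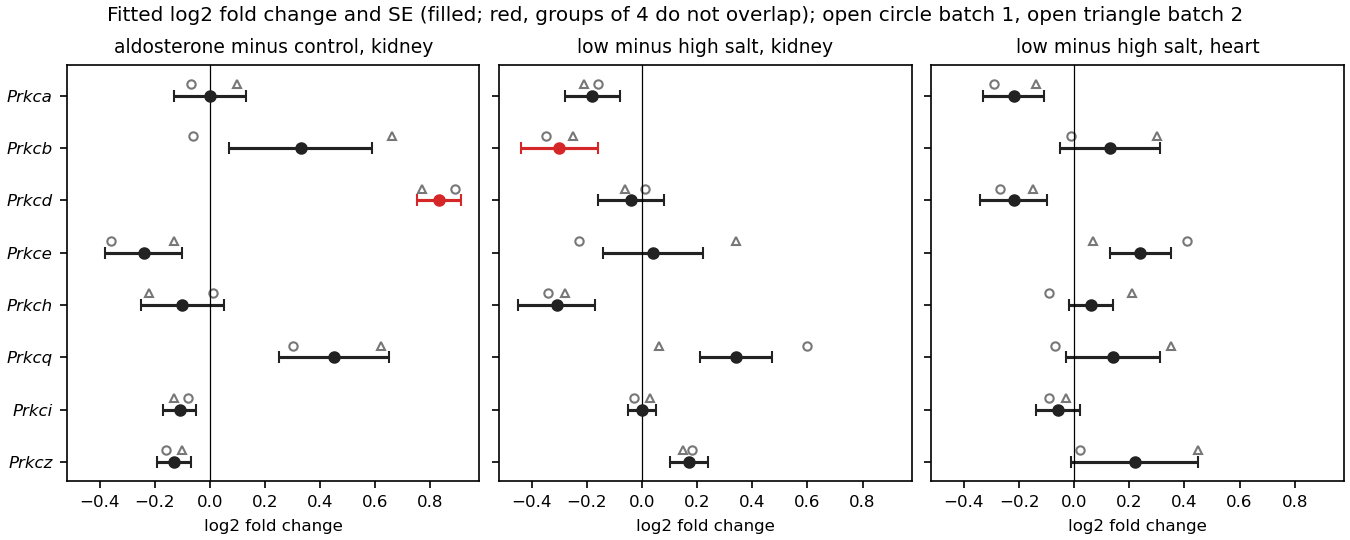
Fitted log2 fold change (horizontal axis) with its SE for the 8 PKC genes in the 3 comparisons, with open circles for batch 1 and open triangles for batch 2, and red where the 4 treated and 4 control libraries do not overlap. Prkcd stands at 0.83 with aldosterone, at -0.04 with low salt in kidney and at -0.22 with low salt in heart.

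In heart ventricle the diets gave overlapping values for all 8 members. Prkce stood at 41.2, 32.8, 33.8 and 39.7 CPM on low salt and 28.1, 27.3, 32.5 and 37.6 CPM on high salt, with a log2 fold change of 0.24 ± 0.11 (SE), 0.41 in batch 1 and 0.07 in batch 2. Prkca stood at 26.4, 19.5, 28.1 and 27.7 CPM on low salt and 25.5, 30.4, 33.7 and 28.3 CPM on high salt (-0.22 ± 0.11). Both batches gave the same sign for these 2 isoforms, while the ranges of the diets overlapped. Without low-salt replicate 1 the Prkce value was 0.14, and without low-salt replicate 2 the Prkca value was -0.12.

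Prkcd stood at 23.7, 28.0, 36.3 and 31.97 CPM on low salt and 30.5, 31.8, 31.3 and 45.7 CPM on high salt (-0.22 ± 0.12). Its value depended on high-salt replicate 4, the highest of the group, since the log2 fold change was -0.11 without it, and without high-salt replicate 3 it was -0.33. Prkch, at 22.6 to 24.8 and 19.4 to 25.8 CPM (0.06 ± 0.08), and Prkci, at 14.3 to 17.5 and 14.4 to 17.9 CPM (-0.06 ± 0.08), had the smallest standard errors. Prkcb (0.13 ± 0.18), Prkcq (0.14 ± 0.17) and Prkcz (0.22 ± 0.23) rested on 32 to 177 counts per library, and counting error adds to their spread. Prkcz stood at 1.63 to 2.07 CPM on low salt and 1.06 to 1.75 CPM on high salt.

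None of the 8 passed the adjusted threshold in edgeR, beside 0.0517% of 15473 genes, and none had an unadjusted p under 0.05, beside 10.6% of all genes. DESeq2 called 0 (2.31% of all genes), with 1 member given no adjusted p. The groups overlapped in all 8, where 4.72% of all genes did not. The median log2 fold change of the members was 0.10, and that of all genes -0.01. With the replicate number as a block the 8 genes called over the whole heart table fell to 0. Among marker lists in the heart pieces, dividing-cell markers summed to 16 to 24 CPM on low and 9.3 to 86.7 CPM on high salt (7 of 7 negative). Erythroid markers summed to 167 to 518 and 28.5 to 330 CPM (6 of 6 positive). The skeletal muscle list summed to 863 to 1740 and 2540 to 5750 CPM, without overlap. Only 3 of its 6 genes were measured, 1 positive and 2 negative, and Myh1 and Myh2 lay under 1 CPM in all 8 libraries. Of the 3, 1 passed the adjusted threshold in edgeR. Fibroblast markers summed to 1220 to 2590 and 2110 to 2740 CPM (6 of 6 negative). Macrophage markers summed to 153 to 193 and 168 to 212 CPM (10 of 12 negative). T-cell markers summed to 17.4 to 26.6 and 21 to 26.6 CPM (6 of 6 negative). Which cells gave these sums was not tested. The part of these markers in the members' values was not tested.

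Around the isoforms, 8 lists of 88 genes covered the steps before and after PKC, and 83 were measured in each table. In kidney on low salt 2 rose (1.09% of all genes rose) and 3 fell (1.37% of all genes fell), in edgeR at an adjusted p of 0.05. DESeq2 called 13 of the 83 (10% of all genes), and 22 had an unadjusted p under 0.05 in edgeR (19.6% of all genes). The 2 that rose and 1 that fell were scaffolds that bind PKC, out of 9 in that list. Akap12, also named gravin, an anchor for PKC and protein kinase A, rose from 71.1 ± 13.6 to 132 ± 30.8 CPM (log2 0.89 ± 0.17 SE, adjusted p 0.0411). Sdc4, syndecan 4, a cell surface proteoglycan that binds PKC alpha, rose from 488 ± 61 to 672 ± 31.6 CPM (0.47 ± 0.09, 0.0471). Anxa2, annexin 2, a calcium-dependent membrane protein and PKC substrate, fell from 841 ± 112 to 600 ± 31.3 CPM (-0.48 ± 0.10, 0.0471). For these 3 genes the values on one diet did not overlap those on the other, as in 11.4% of all genes. They were picked for passing the threshold, so this separation adds no support. Endothelial markers summed to 283 to 476 CPM on low and 416 to 539 CPM on high salt, and their part in these differences was not tested. The low-salt response of Akap12 was larger in kidney than in heart (log2 -0.17 ± 0.10 in heart), by 1.07 ± 0.21 in an interaction test (adjusted p 0.0403 in edgeR, 0.101 with the replicate block). It was 1 of 86 listed genes past that test, where 161 of 19408 genes passed.

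The other 2 were Chn2 and Cdc37. Chn2, beta-chimaerin, a diacylglycerol-binding regulator of Rac, fell from 62 ± 9.42 to 43.8 ± 4.66 CPM (-0.50 ± 0.10, adjusted p 0.045 in edgeR). Its groups overlapped, at 37.9 to 49.3 CPM on low and 48.2 to 68.8 CPM on high salt. Cdc37 is a kinase chaperone that works with Hsp90, and its groups did not overlap. Cdc37 fell from 261 ± 14.2 to 207 ± 4.18 CPM (-0.34 ± 0.06, adjusted p 0.0374 in edgeR). All 5 calls lay close to the threshold and rested on the full set of libraries. When 1 library was left out, Akap12, Cdc37 and Chn2 passed in 1 of 8 fits and Sdc4 and Anxa2 in none, with adjusted p up to 0.124 in edgeR. Akap12 passed without low-salt replicate 2, and Cdc37 and Chn2 passed without high-salt replicate 4. With the replicate block adjusted p-values were 0.0785 to 0.104, and DESeq2 gave 1.26e-05 to 0.000559. Without the batch term only Cdc37 passed in edgeR (adjusted p 0.0446), with 0.0534 to 0.0858 for the others.

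The list of Gq proteins and phospholipases C, which make diacylglycerol, had none past the edgeR threshold among 16 measured in kidney on low salt, with a median log2 of 0.07, and DESeq2 called 4 (Plcb4, Plcd1, Plcd4 and Plce1). Plcd4, Plcb4, Pard6a and Hsp90aa1, described next, passed in DESeq2 but not in edgeR and were picked after their values were seen. Plcd4, a phospholipase C, averaged 29.8 ± 10.3 CPM on the low-salt diet and 12.9 ± 3.78 CPM on the other (1.24 ± 0.29, adjusted p 0.066 in edgeR), and Plcb4, which is coupled to Gq proteins, at 51.4 ± 8.55 and 38.9 ± 2.06 CPM (0.40 ± 0.11, 0.0897). Of 11 polarity partners of the atypical isoforms none passed in edgeR, DESeq2 called 3 (Pard6a, Wwc1 and Llgl2), and the median was 0.01. Pard6a, a scaffold of PKC iota and zeta, had the smallest p, at 1.88 ± 0.235 and 3.47 ± 0.664 CPM (-0.88 ± 0.20, adjusted p 0.0606 in edgeR). Hsp90aa1, the chaperone partner of Cdc37, stood at -0.34 ± 0.09 (adjusted p 0.0855 in edgeR). Among 12 substrates, 8 diacylglycerol kinases, which remove diacylglycerol, and 7 related kinases none passed in edgeR or DESeq2, with medians of 0.05, 0.13 and 0.06.

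With aldosterone 0 of 83 genes passed in edgeR, DESeq2 called 1, Marcksl1 (2.06% of all genes), and 11 had an unadjusted p under 0.05 (7 higher, 4 lower), beside 9.9% of all genes (6.2% higher, 3.7% lower). Marcksl1, a PKC substrate that binds actin, stood at 34.8 ± 6.5 and 24.3 ± 4.69 CPM (0.53 ± 0.13, adjusted p 0.266 in edgeR). Ppp1r14b, a phosphatase inhibitor that PKC activates, stood at 41.4 ± 2.72 and 33.7 ± 1.25 CPM (0.30 ± 0.07, 0.254), with every treated rat above every control. The substrate list had 10 of 12 positive values, where 50.9% of all genes were positive. Its median was 0.21, against 0.00 over all genes. Rictor, a subunit of the mTOR complex that matures PKC, stood at 50.3 ± 2.64 and 58.4 ± 2.9 CPM (-0.21 ± 0.06, 0.299). Maturation genes were negative in 9 of 11, with a median of -0.09. Prkd1, a kinase that PKC activates, stood at 0.34 ± 0.12 (0.402) and Pkn2, a PKC-related kinase, at -0.22 ± 0.07 (0.388).

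In heart 0 of 83 passed in edgeR, DESeq2 called 0 and gave no adjusted p for 9, and 15 had an unadjusted p under 0.05 (4 higher, 11 lower), beside 10.6% of all genes (5.68% higher, 4.92% lower). The smallest p belonged to Prkd1, whose low-salt level was 19.6 ± 0.88 CPM and whose high-salt level was 15.4 ± 1.91 CPM (0.35 ± 0.09, adjusted p 0.266 in edgeR), without overlap. Anxa2 stood at -0.34 ± 0.12 (0.362) and Plce1, a phospholipase C of heart and kidney, at -0.24 ± 0.08 (0.342). The anchor list had 8 of 9 negative values, where 48.2% of all genes were positive. Its median was -0.15, against -0.01 over all genes. It was the most one-sided of the 8 lists in heart, and nothing is read from its signs.

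**Figure D4:**
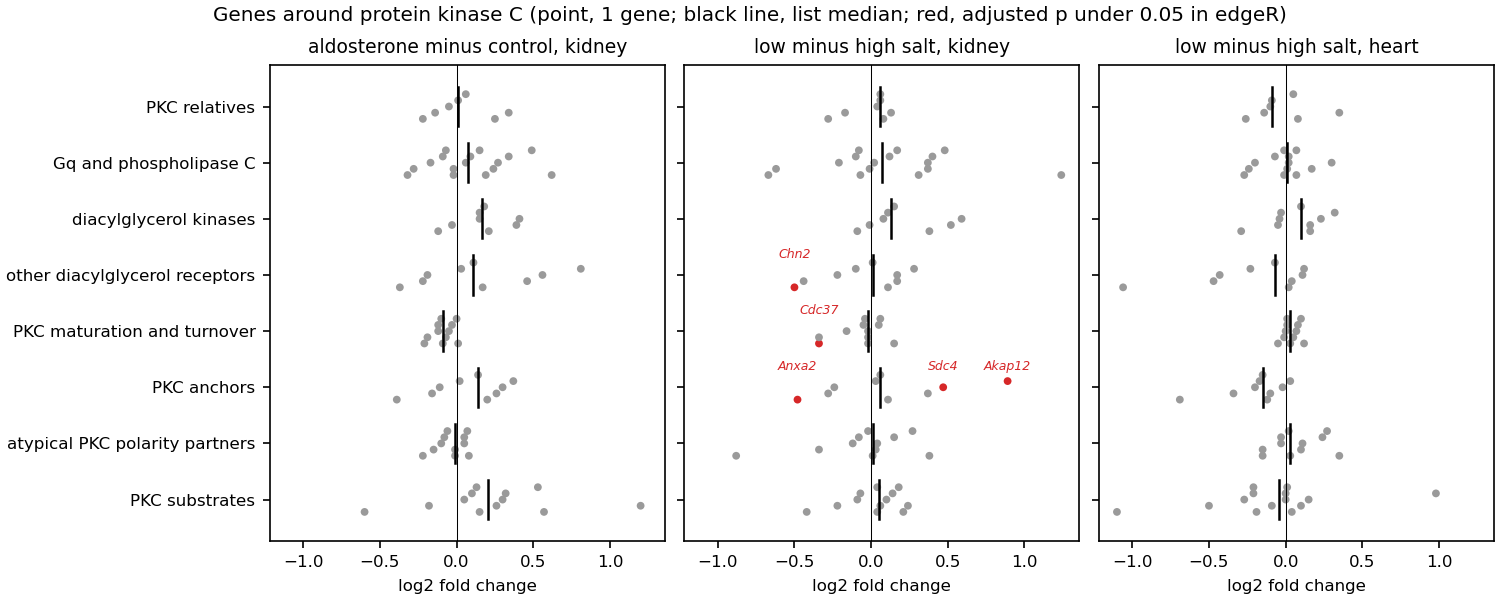
Log2 fold change (horizontal axis) of the measured genes of 8 lists around PKC in the 3 comparisons, 1 point per gene, with a black line at the list median and red where edgeR gave an adjusted p under 0.05. The 5 red points are all in kidney on low salt, with Akap12 at 0.89 and Chn2 at -0.50 as the outermost.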

How the data were processed

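RNA from 24 rat samples (6 groups of 4 rats) was sequenced as stranded mRNA libraries, single-end, 50 cycles. The deposited values are expected counts per gene, which the authors made with Trimmomatic and Salmon after bcl2fastq 2.19, per the submitters' processing notes. The build, the annotation and the use of strand were not given in the sources used here. Totals were 24299423 to 38318764 per library. No 2 of 36 library pairs within a group were duplicates (chi-square per gene 20.3 to 104).

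Counts were rounded and fitted per table over all genes with edgeR 4.0.16 (R 4.3.3): a filter at a count of 10, TMM, a batch term, the quasi-likelihood test, and Benjamini-Hochberg adjustment with a threshold of 0.05. Interaction terms compared responses. Alternatives were DESeq2 1.42.0, other scalings and filters, no batch term, a replicate block, single batches and each library left out. On simulated counts with 200 changed genes, 2-fold changes were recovered in 44.8%, 44.8% and 55.2% in the aldosterone, kidney and heart comparisons (17671, 18449 and 15473 genes). In heart, samples with the same replicate number deviated together (r 0.223, 0.296, 0.29 and 0.237), as did different numbers of the same batch (0.258 to 0.325), and the block took the 8 heart calls to 0.

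CPM use each table's own scaling. Members and lists were chosen with earlier results of these data known. Named are all 8 isoforms, list genes past the threshold or, in a comparison with none, among the 2 of smallest p per list, the 5 genes most like Prkcd, and Scnn1a. Plcd4, Plcb4, Pard6a and Hsp90aa1 in kidney on low salt fall outside this rule and were chosen after their values were seen. Marker, Y-linked and Prkcel1 values are checks. P-values within a table measure the spread between rats. The interaction test between kidney and heart treats its 16 libraries as separate rats, and the labels do not say whether the tissues share rats.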

Additional observations from a re-analysis of the deposited data

Results flagged for a closer look

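Among 48 sets of 4 libraries (8 isoforms in 6 groups), 4 held a library far from the other 3, where chance flags about 1 in 20, or 2.4 sets. Prkcd in heart on high salt stood at 45.7 CPM in replicate 4 and at 30.5 to 31.8 CPM in the other 3. Prkci stood at 136 CPM in aldosterone replicate 4 in kidney, below 143 to 144 CPM in the others. In heart on high salt Prkci was 14.4 CPM in replicate 1, below 17.4 to 17.9 CPM, and Prkcz was 1.06 CPM in replicate 3, below 1.67 to 1.75 CPM. The remaining value is a difference between tissues: the log2 response of Akap12, the PKC anchor, to low salt was 1.07 higher in kidney than in heart (adjusted p 0.0403 in edgeR's interaction test). With the replicate block the adjusted p was 0.101.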

How the results depend on the processing

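The log2 values of the 8 isoforms in 3 comparisons were each recomputed under 17 alternatives and moved by less than 1 SD between replicates, except Prkcq in kidney on low salt, which was 0.60 in batch 1 alone and 0.07 in batch 2 alone. Prkcd with aldosterone stayed at 0.76 to 0.89. Kidney minus heart log2 differences with raw totals were -0.13 for Prkca, 0.06 for Prkcb, 0.70 for Prkcd, -1.38 for Prkce, 0.95 for Prkch, 3.03 for Prkci, 3.83 for Prkcq and 6.23 for Prkcz, against -1.02, -0.83, -0.19, -2.26, 0.06, 2.14, 2.94 and 5.34. Shares scaled by transcript length were not run, since no lengths were at hand.

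Counts of genes past the threshold moved more. With aldosterone the count of 0 became 359 with DESeq2, 4 without a filter, 1 in batch 1 alone and 0 to 2 when 1 library was left out. In kidney on low salt the 454 genes became 1606 with DESeq2, 165 without the batch term, 0 in batch 1 alone, 240 in batch 2 alone and 52 with the replicate block. Leaving out 1 kidney library gave 2 to 423: the count was 70, 24, 38 and 312 without high-salt replicates 1 to 4, and 423, 163, 2 and 84 without low-salt replicates 1 to 4. Same-numbered kidney samples had r of 0.079, 0.186, -0.045 and 0.32 with aldosterone, and -0.043, 0.231, -0.047 and -0.023 on the diets. Different numbers ran from -0.292 to 0.261 with aldosterone and from -0.238 to 0.212 on the diets. These values do not settle whether the replicate numbers pair the kidney samples. In heart the 8 genes became 287 with DESeq2, 85 without a filter, 1 without the batch term, 1 in each batch alone, 0 with the replicate block and 1 to 8 when 1 library was left out (3, 1, 8 and 2 for high-salt replicates 1 to 4, and 2, 4, 3 and 1 for low-salt replicates 1 to 4). With the replicate block the differences of responses went from 10 genes to 0 between aldosterone and low salt, and from 161 to 16 between kidney and heart. The cause was not tested. With 4 rats a group, simulated 1.5-fold changes were recovered in 13.4%, 13.4% and 17.9% in the aldosterone, kidney and heart comparisons, so smaller changes in the lists can go uncalled.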
